A study of Mus musculus with 51 samples.

Results

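A set of 40 core genes of splicing and mRNA processing was followed in the mammary gland (MG) and blood of BALB/c and C57BL/6 mice. The genes were taken by name: the serine/arginine-rich (SR) proteins, the heterogeneous nuclear ribonucleoproteins (hnRNPs), factors of the U2 particle and the branch point, proteins of the other spliceosomal particles, RNA helicases with the coactivator Rbm39, and 4 genes of polyadenylation, RNase P and mRNA decay. Of the 40 genes, 34 had at least 1 probe set annotated to that gene alone, out of 11807 genes measured in this way, and they held 79 probe sets. Srsf5, Srsf7, Tra2a, Tra2b, Hnrnpf and Hnrnpu were not analysed here. Each gene was read at its brightest probe set over the MG arrays unless a probe set is named, and all values are log2 signals.

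The mice were virgin females of the 2 inbred strains, BALB/c being sensitive and C57BL/6 resistant to radiation-induced mammary cancer. From 8 weeks of age they received 4 weekly X-ray exposures of 7.5 cGy (low dose, LD), of 1.8 Gy (high dose, HD) or none (sham), and the 4th MG pair was taken without its lymph node 4 hr or 1 month after the last exposure. There were 43 MG arrays, each from 1 mouse, in 12 groups. The BALB/c groups held 3 sham, 4 LD and 4 HD arrays at 4 hr and 3 sham, 2 LD and 4 HD arrays at 1 month. The C57BL/6 groups held 3 sham, 4 LD and 4 HD arrays at 4 hr and 4 arrays of each kind at 1 month. Another 8 arrays held heart blood of unirradiated 9-week-old mice, 4 of each strain. The whole gland was profiled, so fewer cells of a type and less RNA per cell cannot be told apart.

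Transcripts are spliced while they are being made. The U1 particle marks the start of an intron, U2AF and the U2 particle mark its branch point and end, and the U4/U6/U5 particle joins before the intron is cut out. SR proteins bind exons and mostly favour their inclusion, whereas many hnRNPs oppose it. The end of the message is then cleaved by a complex that includes Cpsf2 and is given its poly(A) tail by Papola. In the mammary gland as elsewhere these genes are used by every cell, and they are best known there for the alternative exons that differ between epithelium and stroma.

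These were bright genes. In the MG their median rank was the 87.4th percentile of all genes measured, 25 of the 34 lay in the top 25%, and Xrn1 was lowest at the 40.8th percentile. In blood the median rank was 87.8. The MG arrays carried the transcripts of fat and luminal epithelium that the tissue should hold (9.48 to 10.32 for the mean of 9 luminal markers in sham glands at 4 hr, against 3.75 to 5.27 in blood), and blood carried those of white cells. In 9 arrays a list of markers of another tissue stood over 2 log2 units above the median array, mostly skeletal muscle in the MG and, in C57BL/6 blood replicate 4, liver (9.41 above the median array). That blood array correlated at 0.81 to 0.83 with the others, which reached at least 0.97 among themselves. In C57BL/6 MG the array so marked was sham 1 month replicate 2. In BALB/c MG they were sham 4 hr replicate 1, LD 4 hr replicates 1 and 2, HD 4 hr replicate 1 and HD 1 month replicates 1 and 3. Brown fat markers in sham MG ran higher in C57BL/6 than in BALB/c (8.18 to 11.19 against 7.26 to 8.61 at 4 hr, 7.20 to 7.94 against 6.68 to 6.83 at 1 month). Their part in the strain differences was not tested. Each strain's MG arrays were run on their own plate, so plate and strain cannot be told apart in the MG. Sham MG arrays sat in plate columns 1 to 5 and irradiated MG arrays in columns 5 to 12. In blood the BALB/c arrays sat in columns 2 to 5 and the C57BL/6 arrays in columns 6 to 9, so plate column and strain cannot be told apart there.

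Promoter sequence is shown for 4 genes called below at their brightest probe set that have 1 start in the promoter table used, so that their starts can be placed and compared. The 120 bases before the outermost annotated start of the gene are given in the gene's own direction from RefSeq on GRCm38.p6, a C57BL/6J genome, and the BALB/c sequence was not analysed here. Capitals mark the CCAAT and GGGCGG boxes, on either strand.
Pop4, chr7:38271394-38271513, minus strand: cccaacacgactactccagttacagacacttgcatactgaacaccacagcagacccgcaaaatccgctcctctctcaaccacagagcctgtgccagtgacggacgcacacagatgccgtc
Srsf6, chr2:162931388-162931507, plus strand: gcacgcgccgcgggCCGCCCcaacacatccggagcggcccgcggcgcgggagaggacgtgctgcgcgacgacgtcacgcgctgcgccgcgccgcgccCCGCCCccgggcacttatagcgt
Hnrnpc, chr14:52104040-52104159, minus strand: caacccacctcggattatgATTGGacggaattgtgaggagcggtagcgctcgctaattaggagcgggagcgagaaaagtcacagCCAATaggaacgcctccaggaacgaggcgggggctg
Xrn1, chr9:95954630-95954749, plus strand: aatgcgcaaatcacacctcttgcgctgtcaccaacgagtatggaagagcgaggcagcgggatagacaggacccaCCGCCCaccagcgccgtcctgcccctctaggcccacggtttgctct

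Srsf6 held 2 GC boxes in this window and Xrn1 held 1, Hnrnpc held 2 CCAAT boxes, and Pop4 held neither. Over the 250 bases before each start in that table, which lay 45, 18 and 10 bases inside the annotated gene for Pop4, Hnrnpc and Xrn1, 31 of the measured genes had a sequence and 30 of them had more CG steps than the median of all genes, with a median of 19 against 6 (a gene's richest start was taken). CCAAT was found before 17 of the 31 genes (54.8%, against 37.5% of all genes), GGGCGG also before 17 (54.8% against 35.4%), CCGGAAG, the core of the ETS motif, before 6 (19.4% against 7.83%), and TATAAA before 5 (16.1% against 14.3%). These are matches of letters on both strands and not measured binding.

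The first comparison asked how the strains differed before any exposure. Pop4, a protein subunit of RNase P and RNase MRP, was lower in BALB/c and was the only one of the 34 genes whose sham arrays did not overlap between strains, as was the case for 3.83% of all genes. Xrn1, the exonuclease that degrades decapped mRNA, was higher in BALB/c, and Rbm39 and Hnrnpl were lower by small amounts. The other 30 genes did not pass the test. By limma over 6 BALB/c and 7 C57BL/6 sham arrays, with p adjusted over all probe sets, 4 of the 34 genes were called, against 8.83% of all genes. One was higher (background 4.28%) and 3 were lower (background 4.56%). Among these, Pop4 and Rbm39 had been listed with their sham differences known. The median difference was −0.05, against 0.01 over all genes. It was 0.03 in the 4 hr arrays and −0.20 in the 1 month arrays, where 13 and 25 of the 34 genes were below 0, so its sign depended on the time.

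Pop4 read 6.50, 6.35 and 6.11 in the BALB/c sham arrays at 4 hr and 6.31, 6.38 and 5.92 at 1 month. In C57BL/6 it read 7.21, 7.20 and 7.43 at 4 hr and 7.36, 7.33, 7.42 and 7.24 at 1 month. Every BALB/c array lay below every C57BL/6 array, and the difference was −1.05 (SE 0.091, adjusted p = 1.02e-05), or 2.07-fold. Pop4 was read by 1 probe set alone, so no other could be compared with it. Pop4 had been put on the list with this difference known.

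Xrn1 read 6.63, 6.71 and 6.20 at 4 hr and 6.19, 6.29 and 6.64 at 1 month in BALB/c. In C57BL/6 it read 6.27, 5.83 and 5.50 at 4 hr and 5.63, 6.01, 5.98 and 5.80 at 1 month. The strains overlapped through 1 C57BL/6 array at 4 hr, and the difference was 0.58 (SE 0.13, adjusted p = 0.0171). The study had already listed Xrn1 among its early BALB/c LD genes, a comparison that used the BALB/c sham arrays at 4 hr.

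Hnrnpl, which binds CA-rich RNA, read 8.43, 8.32 and 8.29 at 4 hr and 8.30, 8.30 and 8.25 at 1 month in BALB/c. In C57BL/6 it read 8.34, 8.32 and 8.48 at 4 hr and 8.70, 8.70, 8.88 and 8.53 at 1 month. The strains stood apart at 1 month alone, and the difference over both times was −0.23 (SE 0.066, adjusted p = 0.0496). The call was lost in 12 of the 13 fits that left out 1 sham array, at adjusted p up to 0.113, and the difference was −0.04 in the 4 hr arrays and −0.42 in the 1 month arrays.

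Rbm39, a splicing factor related to U2AF that also acts as a transcriptional coactivator, read 10.15 to 10.52 in BALB/c and 10.37 to 10.73 in C57BL/6 sham arrays at its brightest probe set. The difference was −0.25 (SE 0.068, adjusted p = 0.0370), and 9 of the 13 fits that left out 1 sham array lost it, at adjusted p up to 0.0909. Subtracting each array's median likewise left Pop4 and Xrn1 as the 2 genes called.

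By role, the sham differences of the SR protein genes ran from −0.20 to 0.16, those of the hnRNP genes from −0.25 to 0.15, those of the U2 and branch point genes from −0.24 to 0.12, and those of the other particle genes from −0.26 to 0.14. Prpf8, the core protein of the U5 particle, and Sf3b1, which holds the branch point, differed by −0.11 and −0.13 without passing. Among the polyadenylation, RNase P and decay genes 2 of 4 were called, and of the 30 others 2 were. Whether the roles differ was not tested.

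The 30 irradiated MG arrays came from mice that the sham comparison did not use. In them 10 of the 34 genes were called, against 26.3% of all genes, so the share was close to the background. Higher in BALB/c were 7 genes (background 16.0%): Srsf2 (0.34, SE 0.045, adjusted p = 2.32e-06), the Sm protein gene Snrpb (0.27), the ubiquitin ligase gene Prpf19 (0.24), Xrn1 (0.23), the U1 protein gene Snrpa (0.20), Hnrnpm (0.17) and Ptbp1 (0.14). Lower were 3 (background 10.2%): Pop4 (−0.83, SE 0.055, adjusted p = 3.75e-12), Rbm39 (−0.26) and Sf3b1 (−0.14). The direction of Sf3b1 and Rbm39 depended on the probe set: the mean over its probe sets was higher in BALB/c for Sf3b1 (0.15, adjusted p = 0.0108), and for Rbm39 it was 0.05. For Srsf2 the size depended on it too. Its further probe sets departed from the brightest by 0.30 (adjusted p = 2.14e-05 by limma), 0.11, −0.28 (adjusted p = 0.00366) and −0.20. The further probe set of Ptbp1 departed by −0.15 (adjusted p = 0.0719). Pop4 ranged from 6.08 to 6.78 in the 14 BALB/c arrays and from 6.80 to 7.50 in the 16 C57BL/6 arrays. The strains thus did not overlap after irradiation either, as was the case for 1.34% of all genes. Ptbp1 was lost when array medians were subtracted (adjusted p = 0.0794) and in 12 of the 30 fits that left out 1 array. Without the arrays that held another tissue's transcripts Xrn1 (adjusted p = 0.0817) and Ptbp1 (adjusted p = 0.0525) were lost, and Xrn1 was also lost without BALB/c LD 1 month replicate 1 (adjusted p = 0.0687).

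In blood no gene of the 34 was called by limma, against 0.440% of all genes, and 7 had an unadjusted p under 0.05 (8.54% of all genes did). The 3 smallest p belonged to Pop4, Srsf2 and Xrn1. Pop4 read 5.34, 5.32, 5.16 and 5.28 in BALB/c blood and 5.85, 5.67, 6.01 and 6.28 in C57BL/6 blood, a difference of −0.68 (SE 0.14, adjusted p = 0.119). Xrn1 read 5.29, 5.10, 5.08 and 5.53 against 4.93, 4.77, 4.59 and 5.003, a difference of 0.42 (adjusted p = 0.415). Neither gene's strains overlapped, as in 4 of the 34 genes and 7.16% of all genes. Both differences had the sign seen in the MG. Pop4 is in the study's baseline signature, which was selected in these data for the same direction in MG and blood. The sign of Pop4 in blood is therefore no independent check. Srsf2, the SR protein that also acts in transcription, differed by 0.43 at its brightest probe set (adjusted p = 0.393). The strain differences of its further probe sets departed from that value by 0.26, −0.17, −0.48 and −0.58. None of these departures passed by limma, but the difference of Srsf2 in blood was not seen alike at all its probe sets. Without C57BL/6 blood replicate 4, the array with liver transcripts, 2 genes were called, Pop4 at adjusted p = 0.0244 and Srsf2 at 0.0399.

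**Figure D1:**
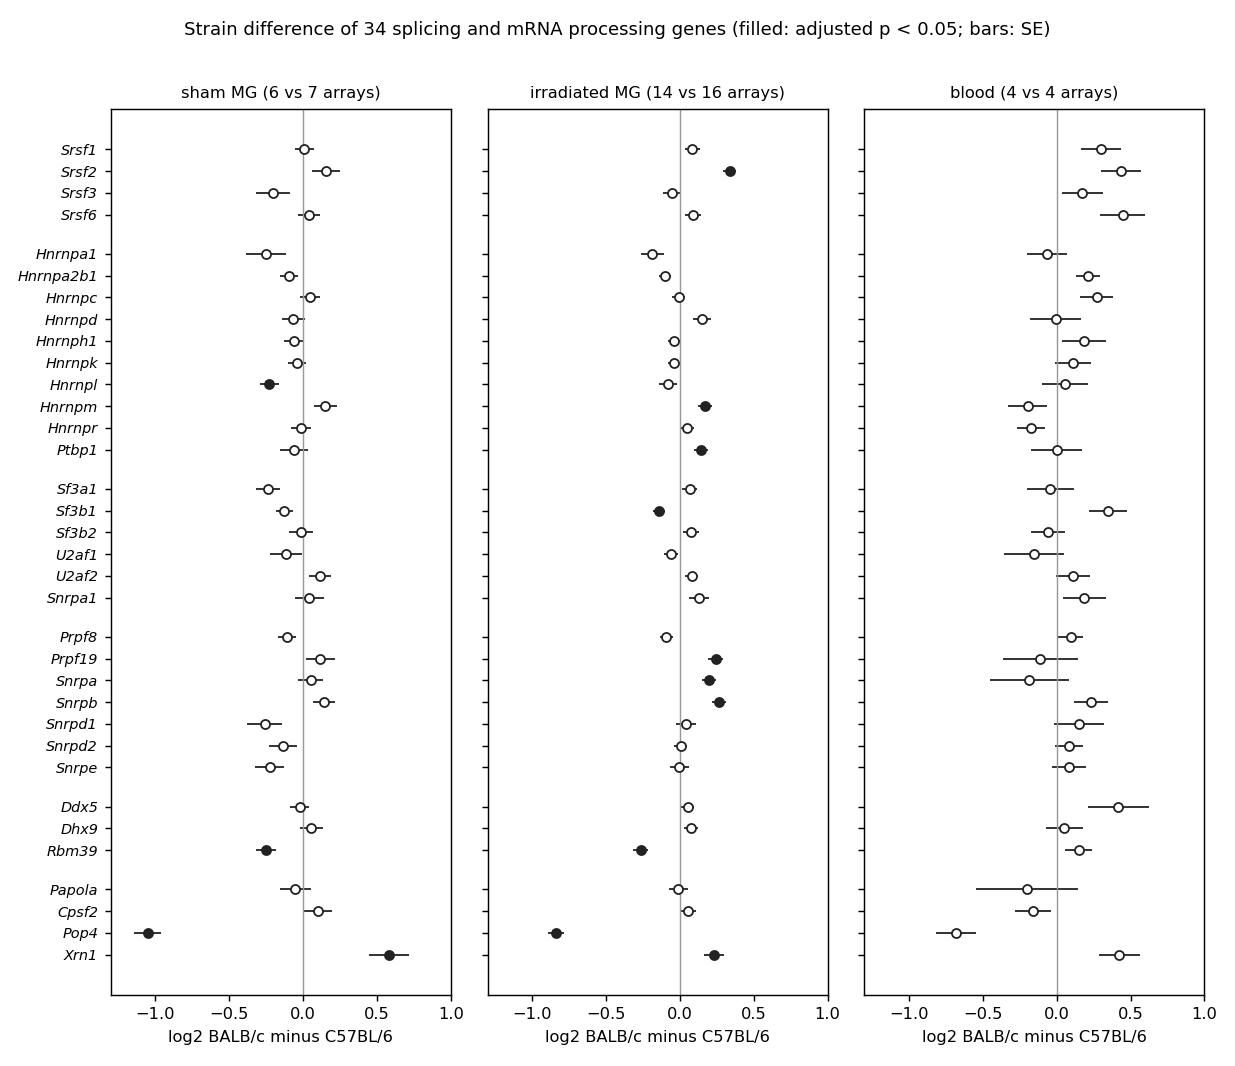
Difference between strains (BALB/c minus C57BL/6, log2) of the 34 genes in sham MG, irradiated MG and blood, grouped by role from SR proteins at the top to polyadenylation, RNase P and decay at the bottom; points are fitted differences, bars are SE and filled points passed adjusted p under 0.05. Pop4 lies furthest to the left in all 3 panels (−1.05, −0.83 and −0.68), Xrn1 lies to the right in each, and most other genes lie within 0.3 of 0.

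One gene can be read by several probe sets, each a set of oligonucleotides against 1 stretch of its transcripts. For 20 of the 34 genes the strain difference was compared between each further probe set and the brightest one. The others, among them Pop4, Xrn1, Hnrnpl and Hnrnph1, had 1 probe set each and could not be compared in this way. In 5 genes (Papola, Rbm39, Srsf2, Hnrnpc and Sf3b1) at least 1 probe set differed from the brightest in sham MG, against 12% of the 4150 genes with several probe sets. These were 6 of 45 pairs, against 9.52% of all pairs. All 6 were called with the same sign in the irradiated arrays, as were 72.0% of all pairs called in sham MG. Papola and Rbm39 had been listed with their sham differences known, so an excess of the members over these backgrounds cannot be read as a result.

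Papola, the poly(A) polymerase of mRNA, did not differ between strains at its brightest probe set, 1424216_a_at (−0.05, SE 0.10, adjusted p = 0.818). Probe set 1427544_a_at read 7.91, 7.47 and 7.84 at 4 hr and 7.75, 7.40 and 7.97 at 1 month in BALB/c sham MG. In C57BL/6 it read 6.41, 6.17 and 6.23 at 4 hr and 6.16, 6.17, 6.07 and 6.29 at 1 month. The strains did not overlap, and the strain difference exceeded that of the brightest probe set by 1.55 (SE 0.14, adjusted p = 4.02e-06) in sham and by 1.26 in irradiated MG (adjusted p = 4.46e-12). In blood this probe set read 5.03, 4.93, 4.93 and 5.49 in BALB/c and 4.01, 3.78, 3.98 and 4.08 in C57BL/6 (1.13, SE 0.15, adjusted p = 0.0220). The other probe sets, 1455836_at and 1424217_at, differed by 0.13 and 0.28 in sham MG and by −0.10 each in irradiated MG, and neither passed. Papola thus showed a strain difference at 1 of its 4 probe sets, and a level of the whole transcript cannot be read from it.

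Rbm39 showed both signs. At 1446147_at BALB/c sham arrays read 8.65, 8.71 and 8.82 at 4 hr and 8.81, 8.52 and 8.83 at 1 month. C57BL/6 arrays read 7.70, 7.57 and 7.58 at 4 hr and 7.99, 8.06, 7.89 and 8.05 at 1 month. The strains did not overlap, and the difference was 0.92 (SE 0.069, adjusted p = 2.38e-06). Probe set 1446148_x_at, of a kind that may also pick up related sequences, was higher by 0.73 (adjusted p = 0.000701). In contrast 1426671_a_at and 1438397_a_at were lower by 0.25 and 0.34 on the log2 scale and were called, while 1456386_at (−0.19), 1438398_at (−0.28) and 1420982_at (−0.02) did not pass. In irradiated MG 2 probe sets were higher (0.99 and 0.89), 4 were lower (−0.26, −0.40, −0.54 and −0.30) and 1420982_at was at 0.01. In blood the 2 higher ones were again called (1.33, adjusted p = 0.0245 and 0.89, adjusted p = 0.0498), and both also differed there from the brightest probe set (adjusted p = 0.00449 and 0.0418). The mean over all 7 probe sets was 0.08 in sham MG, not the −0.25 of the brightest, so the direction of Rbm39 depended on the probe set read. Papola and Rbm39, like Pop4, were listed with their sham differences known. Papola and Rbm39 are also in the study's baseline signature, so their differences in blood are no independent check.

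The remaining pairs were smaller. Srsf2 was higher in BALB/c at 1452439_s_at by 0.50 (adjusted p = 0.00312), Hnrnpc at 1418693_at by 0.40 (adjusted p = 0.00483), and Sf3b1 at 1418561_at by 0.23 without passing, whereas their brightest probe sets differed by 0.16, 0.05 and −0.13. In irradiated MG the same 3 probe sets were higher by 0.64, 0.43 and 0.55. Without the arrays that held another tissue's transcripts 3 of the 5 genes were called, namely Papola, Rbm39 and Srsf2.

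**Figure D2:**
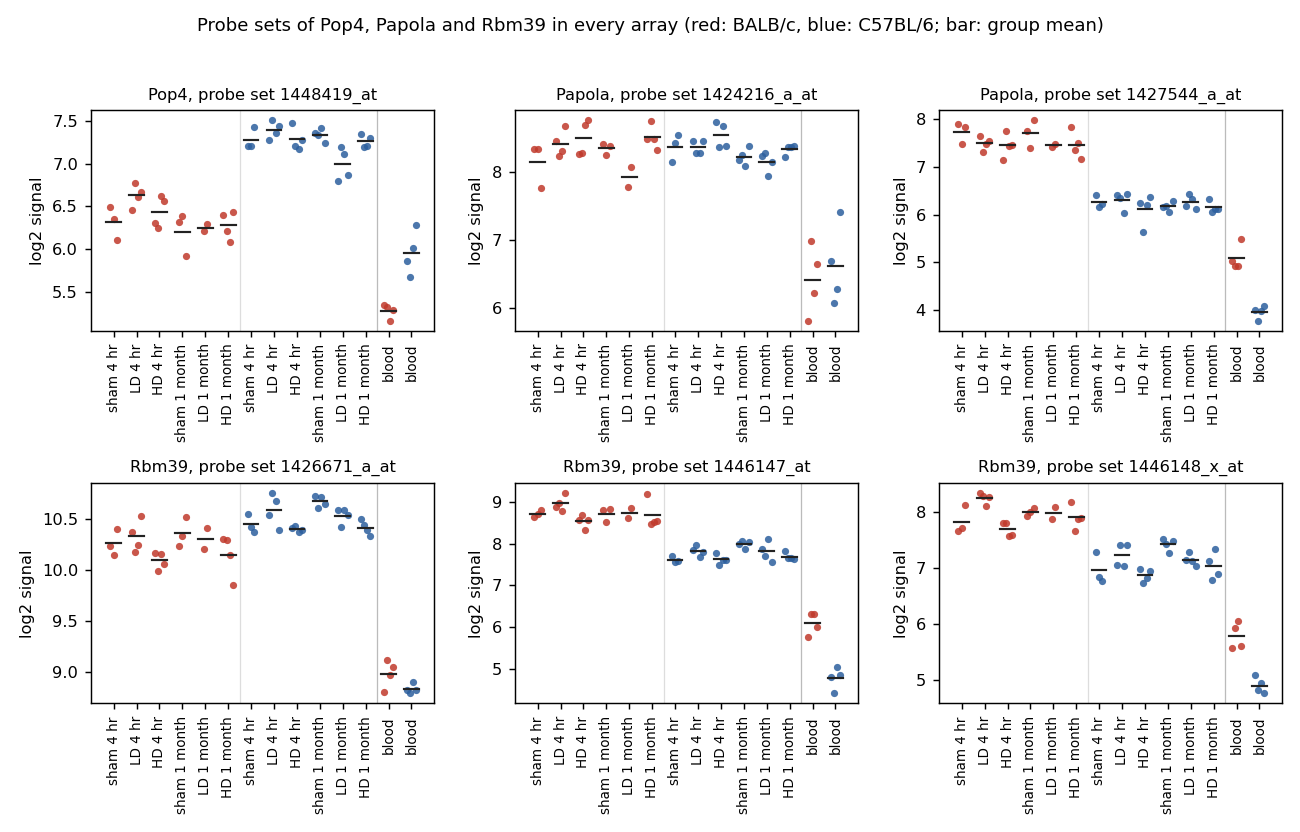
Log2 signal in every array of Pop4, 2 probe sets of Papola and 3 of Rbm39, by group; each point is 1 mouse, red is BALB/c, blue is C57BL/6, bars are group means and blood is at the right of each panel. The strains separate for Pop4, for Papola 1427544_a_at and for Rbm39 1446147_at in every group, but not for Papola 1424216_a_at.

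Among 199 other genes of RNA processing, grouped in 9 lists, 150 were measured. In sham MG 4 were higher and 8 lower in BALB/c (background 4.28% and 4.56%), with a median of −0.03. The highest were Ppih, a tri-snRNP cyclophilin (0.79, adjusted p = 0.00164), the SR-related matrix protein gene Srrm2 (0.73) and Rbfox2 (0.65), a regulator of tissue-specific exons. The lowest were the exosome gene Exosc1 (−0.70, adjusted p = 0.000530), the Lsm ring gene Lsm4 (−0.56) and the deadenylase gene Parn (−0.55). RNA decay genes gave 3 of the 8 lower calls among 19 measured, and none of the 7 other RNase P and MRP genes passed by limma (1 had an unadjusted p under 0.05). In irradiated MG 24 of the 150 were higher and 17 lower (background 16.0% and 10.2%), close to the background. In blood none passed by limma (background 0.440%), 31 had an unadjusted p under 0.05, and 113 were above 0.

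The next comparisons asked what irradiation did within each strain. After HD at 4 hr in BALB/c, 4 of the 34 genes fell by limma (background 5.90% in either direction and 3.11% lower): Srsf6, Hnrnpc, Hnrnph1 and Xrn1. None rose. The study had already listed Xrn1 among its early BALB/c LD genes, a comparison that shares these sham arrays. The place of Xrn1 in the count of 4 is therefore no independent result. In all 4 the HD and sham arrays did not overlap, as in 12 of the 34 genes and 19.2% of all genes. With these 4 included, 30 of the 34 genes had a difference below 0 and 4 were above, whereas 49.3% of all genes were above 0. The median was −0.19 against −0.00 over all genes, and 17 of the 34 had an unadjusted p under 0.05 (22.5% of all genes did).

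Srsf6, an SR protein, read 10.88, 10.88 and 10.90 in sham and 10.43, 10.36, 10.41 and 10.37 after HD. The difference was −0.49 (SE 0.072, adjusted p = 0.00141), or 1.40-fold. After LD it read 10.88, 10.79, 10.94 and 10.89, with 2 arrays just outside the narrow sham range and all 4 above the HD arrays. The 2 dimmer probe sets of Srsf6 were at −0.19 and −0.14 after HD and did not pass.

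Hnrnpc, which binds uridine tracts in nascent transcripts, read 11.33, 11.45 and 11.42 in sham and 10.99, 10.95, 11.004 and 10.97 after HD. The difference was −0.42 (SE 0.070, adjusted p = 0.00345), or 1.34-fold. Its dimmer probe set was at −0.02 (adjusted p = 0.937), so the fall was seen at 1 of 2 probe sets, and the mean of both did not pass (−0.22, adjusted p = 0.0552).

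Hnrnph1, which binds runs of guanosine, read 11.19, 11.22 and 11.31 in sham and 10.96, 10.96, 10.93 and 10.89 after HD, a difference of −0.31 (SE 0.079, adjusted p = 0.0347). Xrn1 read 6.63, 6.71 and 6.20 in sham and 6.11, 5.56, 5.66 and 6.02 after HD, a difference of −0.68 (SE 0.16, adjusted p = 0.0226), or 1.60-fold. Both calls were lost without the HD and sham arrays that held muscle transcripts, at adjusted p = 0.111 and 0.0709, while Srsf6 and Hnrnpc kept theirs. They were also lost without HD replicate 2 or 3 or sham replicate 1 or 2, which left Srsf6 and Hnrnpc as the 2 genes called. Hnrnph1 was further lost without HD replicate 4 or sham replicate 3 (adjusted p up to 0.0913), and when array medians were subtracted (−0.22, adjusted p = 0.0995). With plate column as a covariate none of the 4 passed, although all 4 differences stayed below 0 (−0.33 to −0.54). Plate column and dose overlap in few arrays and cannot be told apart.

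**Figure D3:**
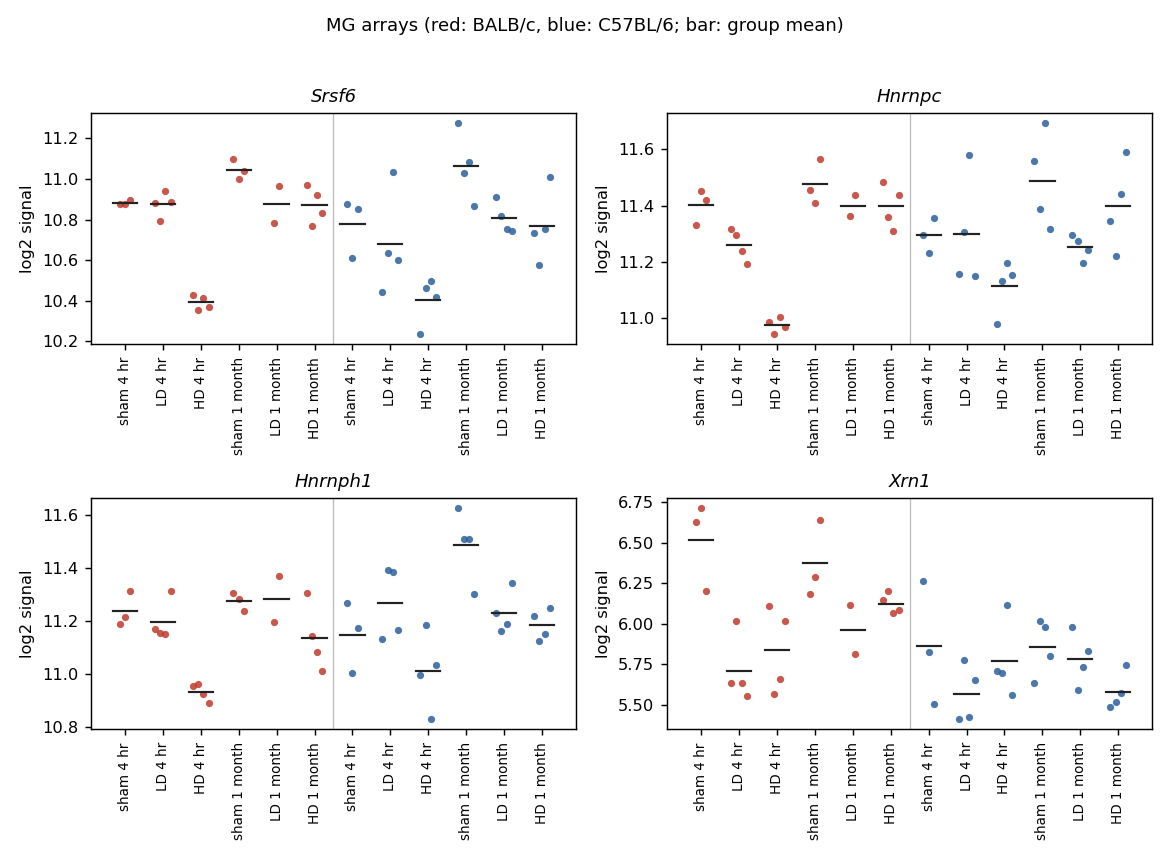
Log2 signal of Srsf6, Hnrnpc, Hnrnph1 and Xrn1 in the 43 MG arrays by strain, time and dose; each point is 1 mouse, bars are group means, red is BALB/c and blue is C57BL/6. After HD at 4 hr in BALB/c the points of all 4 genes lie below the sham points of the same time, and Xrn1 is also below sham after LD at 4 hr.

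The direction was shared across roles in BALB/c HD at 4 hr. All 4 SR protein genes were below 0 (−0.49 to −0.16), as were 9 of 10 hnRNP genes, 5 of 6 U2 and branch point genes, all 7 genes of the other particles and the 3 helicase and coactivator genes. The polyadenylation and decay genes were divided, with Papola at 0.34 and Xrn1 at −0.68. In C57BL/6 at the same dose and time all 4 SR protein genes (−0.38 to −0.22), all 10 hnRNP genes and 6 of 7 particle genes were below 0, 30 of 34 in all, with a median of −0.13. None was called by limma, against 0.872% of all genes, and 6 had an unadjusted p under 0.05 (13.8% of all genes did). Srsf6 came closest, at 10.88, 10.61 and 10.85 in sham and 10.24, 10.46, 10.50 and 10.42 after HD (−0.38, SE 0.12, adjusted p = 0.187), followed by Sf3a1 (−0.25) and the Sm protein gene Snrpd1 (−0.42). When array medians were subtracted 28 of 34 genes in BALB/c and 22 of 34 in C57BL/6 were below 0, with medians of −0.11 and −0.04 against 0.08 and 0.09 over all probe sets. Among the brighter probe sets, those above the median level, the median change was −0.00 in BALB/c and −0.02 in C57BL/6. Of the 34 genes 25 lay in the top 25% of genes, and probe sets at that level were not examined alone.

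The response at HD 4 hr was not shown to differ between strains: no gene was called in limma's test of the difference (0% of all genes were), and 2 of 34 had an unadjusted p under 0.05 (5.89% of all genes). Xrn1 had the smallest p (−0.58, SE 0.23, adjusted p = 0.731), with BALB/c changing by −0.68 and C57BL/6 by −0.10.

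Marker lists of cell types, and of proliferation as a state, moved in the same arrays. The mean of 9 luminal epithelial markers lay at 7.60 to 8.91 in BALB/c HD arrays at 4 hr against 9.48 to 9.85 in sham, and at 8.86 to 9.45 against 9.83 to 10.32 in C57BL/6. The mean of 7 proliferation markers lay at 5.003 to 5.41 against 5.51 to 6.48 in BALB/c and at 4.83 to 5.68 against 5.15 to 6.86 in C57BL/6. Fat markers were higher in BALB/c (12.75 to 12.85 after HD against 12.42 to 12.58 in sham) but overlapped in C57BL/6 (12.53 to 12.83 against 12.63 to 12.82). The mean of the erythroid list was higher in both strains (5.74 to 5.93 against 5.57 to 5.71 in BALB/c, 5.66 to 5.86 against 5.44 to 5.48 in C57BL/6). In the MG Slc4a1, Epb42 and Klf1 of that list were dim (medians 4.13, 4.27 and 4.32), against 8.57 for Tfrc and 6.55 for Alas2. A change in erythroid cells therefore cannot be read from this mean. The part of these markers in the result was not tested. In BALB/c 1 of the 4 HD arrays and 1 of the 3 sham arrays held muscle transcripts, and without them 30 of 34 genes were still below 0, with a median of −0.18.

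Most other RNA processing genes also lay below 0. In BALB/c HD at 4 hr 7 of the 150 fell and 2 rose (background 5.90% in either direction), and 32 were above 0, with a median of −0.12. The largest fall was that of Esrp1, the epithelial splicing regulator (−1.62, SE 0.33, adjusted p = 0.0123), followed by the poly(A)-binding protein gene Pabpn1 (−0.47) and the deadenylase gene Cnot6 (−0.43). Snrpn (0.39) and the SR protein kinase gene Srpk2 (0.33) rose. In C57BL/6 none of the 150 passed by limma (background 0.872%), 13 had an unadjusted p under 0.05, and the median was −0.08.

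At the low dose Xrn1 stood out in BALB/c at 4 hr. It read 5.63, 6.02, 5.64 and 5.55 after LD, all below the sham arrays. LD replicate 1 held epidermis and hair transcripts, and LD replicate 2 and sham replicate 1 held muscle transcripts. The LD and sham arrays did not overlap in 2 of the 34 genes and in 10.7% of all genes. The difference of Xrn1 was −0.80 (SE 0.16), the furthest from 0 of the 34 genes in any response. It did not pass the adjusted test (adjusted p = 0.156), where 0% of genes and none of the 34 were called (3 had an unadjusted p under 0.05, as did 9.18% of all genes), but it passed the study's own thresholds for LD, a log2 difference beyond 0.58 with unadjusted p under 0.1, as 1.52% of genes did. The study had already listed Xrn1 among its early BALB/c LD genes from the same arrays, so this pass repeats that listing. With plate column as a covariate no gene passed these thresholds. Leaving out 1 array at a time gave differences of −0.96 to −0.71 for Xrn1. In C57BL/6 Xrn1 changed by −0.30 after LD (adjusted p = 0.994), and the difference between strains was −0.50 (SE 0.23, adjusted p = 0.9998). U2af2 (−0.26) and Pop4 (0.31) followed in BALB/c, and 18 of 34 genes were above 0. In C57BL/6 LD at 4 hr none was called by limma (0% of all genes were) and 2 had an unadjusted p under 0.05 (4.54% of all genes did). There 17 were above 0 and 17 below, and the smallest p were those of Hnrnpa2b1 (0.17) and Sf3a1 (−0.20).

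At the study's thresholds, with p under 0.01 for HD, Xrn1 was also the 1 gene called in BALB/c HD at 4 hr (4.23% of genes), and was lost there without sham replicate 2. None of the 34 passed them in BALB/c LD at 1 month (1.13%), BALB/c HD at 1 month (1.74%), or C57BL/6 LD at 4 hr (0.356%), LD at 1 month (1.96%), HD at 4 hr (2.19%) or HD at 1 month (2.21%). The sham arrays are shared between the LD and HD comparisons of a strain and time.

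At 1 month no gene passed the adjusted limma test in either strain, whereas the backgrounds were 0% for LD in both strains, 0.0169% for BALB/c HD and 0.982% for C57BL/6 HD. In BALB/c the differences lay on both sides of 0, with 21 of 34 above 0 after LD and 23 of 34 below 0 after HD. The LD group held 2 arrays, and 5 genes had an unadjusted p under 0.05 (6.39% of all genes did), among which Snrpd2 (0.32, adjusted p = 0.570), Ptbp1 (0.29) and Hnrnpl (0.23) had the smallest p. After HD 2 genes had an unadjusted p under 0.05 (10.6% of all genes did), and the smallest p were those of Ptbp1 (0.18, adjusted p = 0.389), Srsf6 (−0.17) and Rbm39 (−0.22).

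In C57BL/6 at 1 month the differences ran 1 way. After LD all 34 were below 0 (median −0.18), and after HD 33 of 34 were (median −0.17), with Papola at 0.11 as the exception, against about 50% of all genes. Unadjusted p under 0.05 was reached by 13 genes in each comparison (12.6% and 18.4% of all genes). After LD the smallest p were those of Hnrnpa2b1 (−0.27, SE 0.070, adjusted p = 0.175), Hnrnpr (−0.32) and Pop4 (−0.35). After HD they were those of Hnrnpr (−0.35, SE 0.086, adjusted p = 0.0510), Rbm39 (−0.26) and Hnrnph1 (−0.30). Without sham replicate 4 of that time 4 genes were called after HD, namely Hnrnph1, Hnrnpr, U2af1 and Snrpb. Of the 150 other RNA processing genes 31 were above 0 after LD and 30 after HD, and none passed by limma (34 and 38 had an unadjusted p under 0.05).

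Both comparisons rest on the same 4 sham arrays. The mean of the 34 genes lay at 9.58 to 9.69 in 3 of the 4 C57BL/6 sham arrays and at 9.44 in the other, against 9.33 to 9.45 after LD, 9.36 to 9.45 after HD and 9.38 to 9.51 in the sham arrays at 4 hr. The irradiated glands at 1 month were thus at the level of the earlier sham glands, and the 3 sham arrays lay above every other C57BL/6 MG array. The fat markers were lowest in these sham arrays (12.08 to 12.68, against 12.36 to 12.69 after LD and 12.54 to 12.88 after HD), and the proliferation markers lay at 4.85 to 7.73 in sham, 4.90 to 5.30 after LD and 5.35 to 6.71 after HD. Sham replicate 2 held muscle transcripts. The part of these in the result was not tested. Without sham replicate 2, 33 of 34 genes were below 0 after LD and after HD, with medians of −0.19 and −0.20, without replicate 3 the medians were −0.14 and −0.13, and without replicate 4 they were −0.28 and −0.22.

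In limma's test of the difference between strains no gene was called at 1 month or for LD at 4 hr (0% of all genes were, each time). For LD 12 of 34 had an unadjusted p under 0.05 (8.17% of all genes), and 31 of the 34 differences were above 0, led by Snrpd2 (0.49, SE 0.16, adjusted p = 0.367), Snrpa (0.46) and Hnrnpd (0.55). For HD 3 of 34 did (5.30% of all genes), and the smallest p were those of Hnrnpr (0.29), Ptbp1 (0.31) and Snrpb (0.28). For LD at 4 hr 2 of 34 did (3.80% of all genes), with Sf3a1 at 0.40 and Xrn1 at −0.50.

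**Figure D4:**
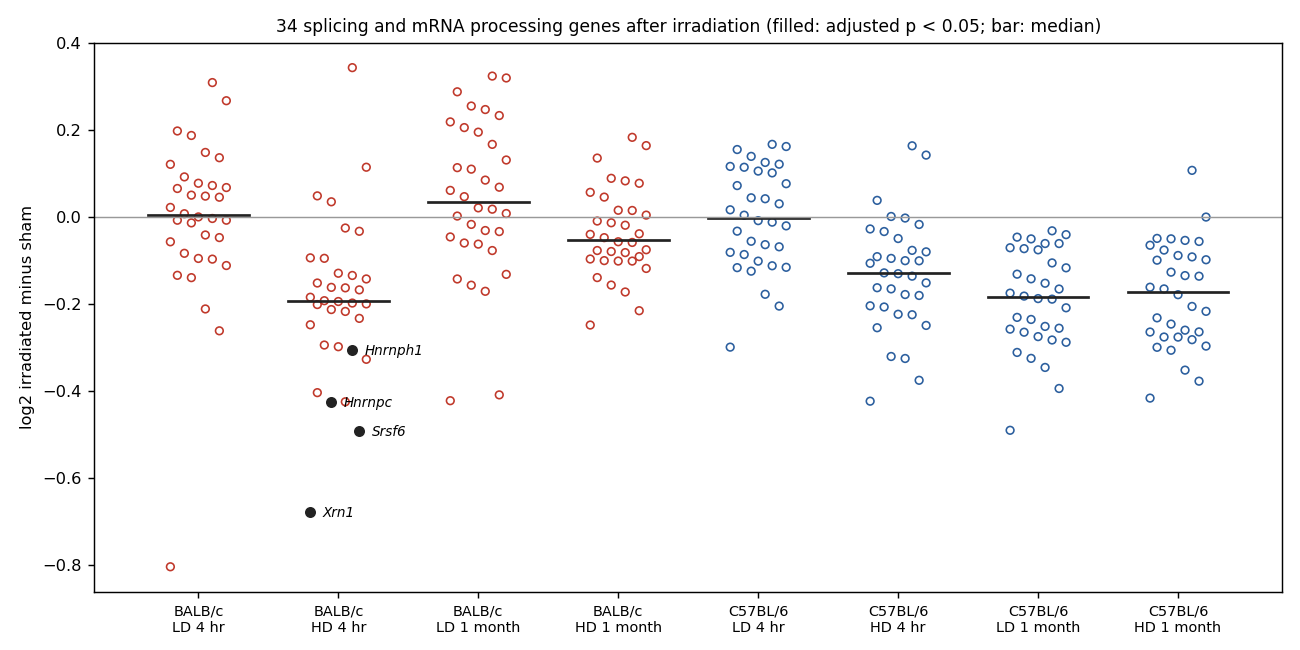
Log2 difference from the sham arrays of the same strain and time for the 34 genes in each of the 8 exposures; each circle is 1 gene, bars are medians, and filled circles passed adjusted p under 0.05. The bars lie at −0.19 for BALB/c HD 4 hr, −0.13 for C57BL/6 HD 4 hr, and −0.18 and −0.17 for C57BL/6 LD and HD at 1 month, and near 0 for LD at 4 hr.

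**Figure D5:**
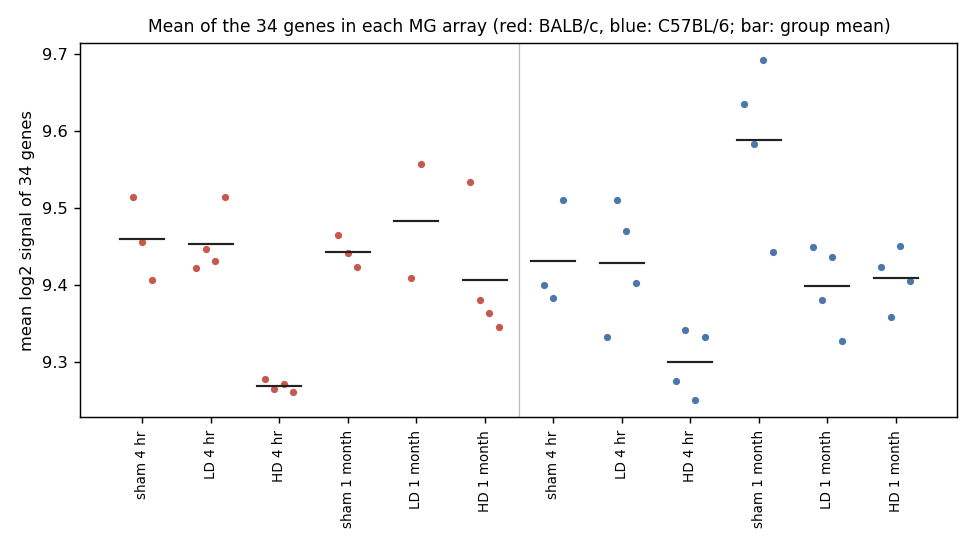
Mean log2 signal of the 34 genes in each MG array, by strain, time and dose; each point is 1 mouse, bars are group means, red is BALB/c and blue is C57BL/6. The 4 BALB/c HD arrays at 4 hr lie together at 9.26 to 9.28, below all other BALB/c arrays, and 3 of the C57BL/6 sham arrays at 1 month lie above all other C57BL/6 arrays.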

How the data were processed

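RNA of 51 mice (43 MG, 8 blood) was hybridised by the authors to Affymetrix HT Mouse Genome 430A arrays. The deposited values are log2 signals of 22626 probe sets made by the authors with RMA, whose probe-level background correction and quantile scaling set arrays of 1 tissue on a common scale; MG and blood arrays differ in their medians (6.16 to 6.36 and 4.61 to 4.71), so no test set levels of one tissue against the other. RMA versions were not given in the sources used here. Probe sets were named from the platform annotation, with symbols updated by gene ID: 18003 had 1 symbol, 287 had several and 4336 were unnamed here. The members and lists were chosen with earlier results of these data known. Groups were compared with limma 3.58.1 in R 4.3.3 (group means model, empirical Bayes, Benjamini-Hochberg over all probe sets, call at 0.05): sham MG with 13 arrays, irradiated MG with 30, blood with 8, responses over all MG arrays of a strain, and strain differences in response over 43. All 34 measured genes could be named; those called, or the 3 with the smallest p where none was, are given with values. The fits were tested on simulated data. Arrays, not probes, are the replicates, and their number limits the precision. Replicate numbers did not pair the arrays. Promoters came from RefSeq (GRCm38.p6), with 31 of the 34 genes matched.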

Additional observations from a re-analysis of the deposited data

Results flagged for a closer look

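Among the 120 sets of 4 arrays examined (8 genes at their brightest probe set, 3 further probe sets of Papola and Rbm39, and the mean of the 34 genes), 3 held an array far from the others by Dixon's test at the 95% level, which chance gives in about 1 of 20 sets. Hnrnph1 read 11.316 in BALB/c LD 4 hr replicate 4, where the other 3 arrays lay at 11.153 to 11.169. Papola at 1424216_a_at read 8.216 in C57BL/6 HD 1 month replicate 1, against 8.357 to 8.379 in the others. Rbm39 at 1446147_at read 9.200 in BALB/c HD 1 month replicate 1, against 8.474 to 8.555, and that array also held B cell transcripts, 3.02 above the median array for their list. No explanation was tested.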

How the results depend on the processing

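The number of genes called in sham MG (4) was 2 after array medians were subtracted, 2 with plate column as a covariate, 2 without arrays with another tissue's transcripts, 1 in the 4 hr and 1 in the 1 month arrays, and 2 to 3 leaving out 1 array; Pop4 was called in each of these. For BALB/c HD at 4 hr (4 called) it was 0 with plate column and 2 without arrays with another tissue's transcripts, and 2 to 5 leaving out 1 array. In blood (0 called) it was 2 with array weights, 1 without the arrays with liver transcripts, and 0 to 2 leaving out 1 array. For C57BL/6 HD at 1 month (0 called) it was 1 with an intensity trend, 1 with array weights, 2 among brighter probe sets, 2 with all 43 arrays, and 0 to 4 leaving out 1 array. For irradiated MG (10 called) leaving out 1 array gave 9 to 11. Genes whose probe sets differ (5) numbered 1 in blood, an alternative chosen after seeing the data, 3 without arrays with another tissue's transcripts, and 3 to 5 leaving out 1 array. The cause of these shifts was not tested.

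Taking the mean over probe sets reversed Rbm39 (0.079 in sham, 0.054 in irradiated MG), Sf3b1 in irradiated MG (0.15, adjusted p = 0.0108) and Papola in the strain difference of the LD 4 hr response (−0.23), and plate column reversed Xrn1 in C57BL/6 LD 4 hr (0.25). With a replicate block 2 genes were called in sham MG (Hnrnpl and Pop4) and 2 in BALB/c HD at 4 hr (Srsf6 and Hnrnpc). Same-numbered arrays of different groups deviated together at a mean correlation of 0.014 in BALB/c and 0.012 in C57BL/6, so the numbers do not pair the arrays. At the study's thresholds Xrn1, the 1 gene called in BALB/c LD and HD at 4 hr, was lost with plate column (0 called) and is itself left out with the dimmer probe sets (0 called). Plate column there gave 2 genes in C57BL/6 LD 1 month, 2 in HD 4 hr and 1 in HD 1 month, where 0 had passed, and leaving out 1 array gave 0 to 1.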
